A study of Mus musculus with 6 samples.

Results

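The 46 genes described here encode subunits of the mitochondrial respiratory chain and of ATP synthase, with cytochrome c. They were chosen by name: all 13 protein-coding genes of mouse mitochondrial DNA (symbols beginning with mt-) and 33 nuclear genes, matched by identifier to the deposited table of 49328 genes. All 46 were listed, and all 46 passed the filter on low values that left 11862 genes for testing. The 6 libraries came from total RNA of cultured cells labelled mesenchymal stromal cells (MSCs), obtained by digesting unfractionated bone marrow of CB6F1 mice with acute graft-versus-host disease, in which donor immune cells attack the tissues of a transplant recipient. CB6F1 is an F1 hybrid laboratory strain. The culture medium was DMEM rich in glucose, with serum and antibiotics, in both groups. In vitro the cells of 3 libraries received R, a compound for which the labels give only this letter, at 0.5 um (the unit as labelled), and those of the other 3 received the vehicle, DMSO. What R is, how long treatment lasted, how old the mice were and how many animals stand behind a group is not stated in the labels.

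The respiratory chain passes electrons from NADH (complex I) and succinate (complex II) through ubiquinone to complex III, on through cytochrome c to complex IV, and so to oxygen, while complexes I, III and IV pump protons that drive ATP synthase (complex V). Its subunits come from separate genomes. Mitochondrial DNA encodes membrane-embedded core subunits of complexes I, III, IV and V and is transcribed from both strands as long precursors that are cut into messenger, ribosomal and transfer RNAs, while complex II and all other subunits are encoded in the nucleus, made in the cytosol and imported.

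The values are FPKM, reads per kilobase of gene scaled to the reads of the library, so levels compare between genes only roughly. The level depends on the exon length set for a gene and, for some mt- genes below, on reads shared with other places. The depth, estimated from the step that 1 read makes in low values, was 17980000 to 21750000 reads in the R libraries and 17070000 to 20010000 in the vehicle libraries. Changes are differences of group means (R less vehicle) in log2(FPKM + 1). On that scale the change of a low gene comes out too small. The threshold was an adjusted p of 0.05 over all genes tested. By limma with Benjamini-Hochberg adjustment, 6.82% of the 11862 genes passed, 2.39% with a higher level and 4.43% with a lower level in R. The labels do not say that replicates are separate cultures or animals, and each p-value therefore reflects only how far these samples scatter, which may be technical. The libraries also held RNA that the label does not name. All 18 macrophage and monocyte markers were expressed, with a summed level of 13990 to 17730 FPKM in R and 17090 to 22800 in vehicle. Among them Lyz2, the macrophage lysozyme gene, had 8707 to 12885 FPKM. The 15 stromal markers summed to 962 to 1374 FPKM in R and 759 to 1104 in vehicle, with the collagen gene Col1a1 at 127 to 588. Of the 15, 12 passed the filter on low values, and 2 (Lepr and Nt5e) were under 1 FPKM in every library. The part of these markers in the results below was not tested. In such bulk RNA, fewer cells of a type and less RNA per cell cannot be told apart.

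Part of the mitochondrial DNA has a near-identical nuclear copy, and this bears on the values of the mt- genes it covers. In GENCODE M21 (GRCm38), 7 unprocessed pseudogenes lie side by side on the minus strand of chromosome 1, between 24611535 and 24616197, in the same order as the run of genes from the 3′ part of mt-Co1 to the 5′ part of mt-Nd4. A read from such a stretch matches both places. The complex I gene mt-Nd4l (chrM:9877-10173, plus strand) and its copy Gm10222 (chr1:24612407-24612700) are an example, with 294 of 294 aligned bases identical. The sequences are shown 5′ to 3′, from the GENCODE M21 transcripts, all in lower case because no base differs.
mt-Nd4l: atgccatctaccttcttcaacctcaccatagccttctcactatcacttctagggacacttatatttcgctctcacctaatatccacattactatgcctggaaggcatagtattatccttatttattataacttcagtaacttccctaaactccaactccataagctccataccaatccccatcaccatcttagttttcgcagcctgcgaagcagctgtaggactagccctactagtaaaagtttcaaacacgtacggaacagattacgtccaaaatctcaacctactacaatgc
Gm10222: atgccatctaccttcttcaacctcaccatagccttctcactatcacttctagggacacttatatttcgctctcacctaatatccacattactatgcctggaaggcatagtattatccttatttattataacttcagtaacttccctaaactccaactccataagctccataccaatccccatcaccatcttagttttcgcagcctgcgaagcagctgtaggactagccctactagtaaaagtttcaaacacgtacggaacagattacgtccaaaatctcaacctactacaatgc

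Neighbouring mt-Nd3 (chrM:9459-9806), also of complex I, differed from its copy Gm28438 (chr1:24612775-24613119) by 1 substitution in 345 aligned bases, T3C, counted from the first base of the gene and written as the gene's base, the position and the copy's base. It is in capitals below, where the first 120 bases of both are shown. No other aligned base differs between these GENCODE M21 sequences, and whether the CB6F1 mice carry the same bases was not tested.
mt-Nd3: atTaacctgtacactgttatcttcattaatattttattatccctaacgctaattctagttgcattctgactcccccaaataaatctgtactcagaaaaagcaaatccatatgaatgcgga
Gm28438: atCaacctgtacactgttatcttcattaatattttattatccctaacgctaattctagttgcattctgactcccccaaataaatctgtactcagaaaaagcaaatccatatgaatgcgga

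The copy ends inside the genes at both of its edges. The next stretches show those edges: bases 827 to 926 of mt-Nd4 (chrM:10167-11544), where the copy Gm28439 stops after base 876 of the gene, and bases 1004 to 1103 of mt-Co1 (chrM:5328-6872), where the copy Gm29216 begins at base 1054. Capitals mark the bases aligned with the copy, whether or not they match it. Gm28439 differs from mt-Nd4 at 0 of 876 aligned bases. Gm29216 differs from mt-Co1 at 6 of 492, namely T1056A, C1057T, A1059G, A1060G, C1062A and A1066T. All 6 lie near the start of the capitals of mt-Co1, so the first of these bases match the copy poorly.
mt-Nd4: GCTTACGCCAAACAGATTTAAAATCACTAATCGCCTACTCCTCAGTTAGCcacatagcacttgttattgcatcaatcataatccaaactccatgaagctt
mt-Co1: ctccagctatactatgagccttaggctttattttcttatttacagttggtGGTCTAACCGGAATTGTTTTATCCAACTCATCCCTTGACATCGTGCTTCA

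The share of a gene's 50-base windows found also in a transcript of another gene was 98% for mt-Nd3, 98.8% for mt-Nd4l, 99.5% for mt-Atp6, 99.9% for mt-Co3 and 100% for mt-Co2. It was 62.2% for mt-Nd4 and 51.1% for mt-Co1, the latter shared also with Gm13340 on chromosome 2. The share was 8.19% for mt-Nd2 and 7.61% for mt-Nd5, and 0% for mt-Nd1, mt-Nd6, mt-Cytb and mt-Atp8. Levels followed the same division of the genome. The 6 genes that lie one after another from mt-Co2 to mt-Nd4l had 2.93 to 85.8 FPKM in every library, and mt-Atp8 was among them. The other 7 genes had 573 to 5902 FPKM. For mt-Atp8 the annotation has no copy on chromosome 1, but only annotated transcripts were searched. The bases between the copies of mt-Atp6 (ending at 24614651) and mt-Co2 (starting at 24614885) were not. How the authors counted reads that match more than 1 place is not stated in the labels, and its part in these levels was not tested.

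**Figure D1:**
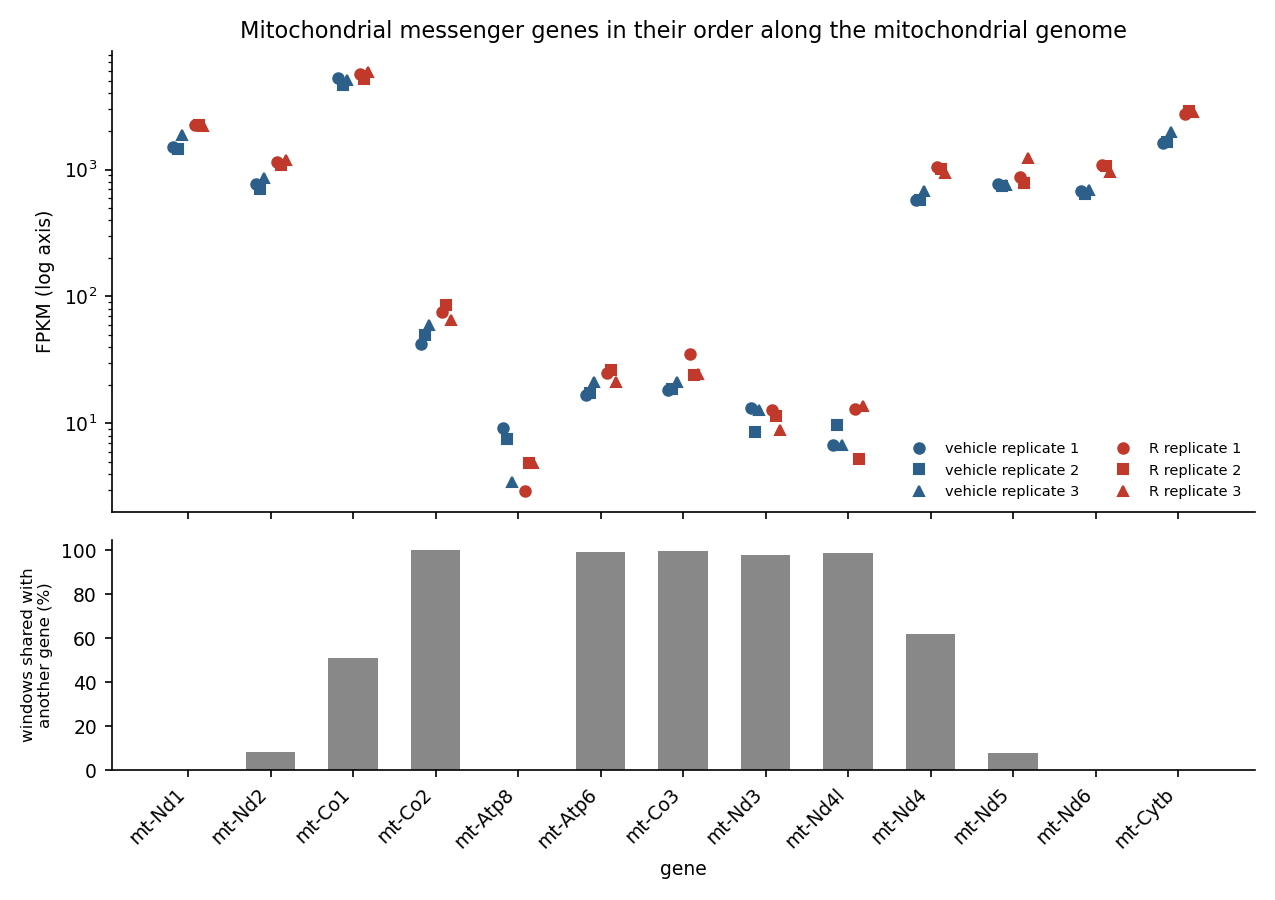
The upper panel plots FPKM on a log axis for the 13 mt- genes in their order along mitochondrial DNA, with 1 point per library (blue, vehicle; red, R; shapes, replicates), and the lower panel gives the percent of each gene's 50-base windows that also occur in a transcript of another gene. The 6 genes from mt-Co2 to mt-Nd4l lie at 2.93 to 85.8 FPKM between neighbours at 573 to 5902 FPKM.

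In the R libraries 4 of the 46 genes were higher past the threshold, all of them mitochondrially encoded: mt-Nd4, mt-Nd6 and mt-Nd2 of complex I and mt-Cytb of complex III (limma, adjusted p of 0.017 to 0.037), where 2.39% of all genes tested were higher past it. No member fell past the threshold, against 4.43% of all genes tested. Among the 13 mt- genes 11 had a positive and 2 a negative change, with a median of 0.49, against a median of -0.0037 over all genes tested. In 8 of the 13 every R library lay above every vehicle library, which held for 13.9% of all genes tested, and in none did every R library lie below. These genes are transcribed together and share reads and precursors, so they do not count as 13 separate observations.

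The complex I subunits of mitochondrial DNA form the membrane arm, where protons are pumped. The largest change among the members was that of mt-Nd4, a pump-like subunit of that arm, with 1048, 1012 and 939 FPKM in R replicates 1 to 3 and 573, 574 and 681 in vehicle. The groups lay well apart, and the vehicle value nearest to R was replicate 3. Its mean was 1.64-fold higher in R, a log2 change of 0.72 with an SE of 0.12 (limma, adjusted p = 0.017). The gene mt-Nd6 is the only 1 of the 13 on the light strand (chrM:13552-14070, minus strand) and had 1083, 1069 and 961 FPKM in R against 674, 643 and 693 in vehicle. Here too the groups did not overlap, and the vehicle values were close together. The log2 change was 0.63 with an SE of 0.11 (limma, adjusted p = 0.018). Whether the libraries keep strand is not stated in the labels, so reads from mt-Nd6 and from the opposite strand cannot be told apart. For mt-Nd2 (chrM:3914-4951), another subunit of the proton-pumping arm, the R values were 1138.5, 1091 and 1196 FPKM and the vehicle values 772, 709 and 854. Every R library was above every vehicle library, with a log2 change of 0.56 and an SE of 0.12 (limma, adjusted p = 0.037).

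The other mt- genes of complex I did not pass. The level of mt-Nd1, the subunit next to the ubiquinone site, was 2254, 2251 and 2206 FPKM in R and 1510.5, 1444 and 1869 in vehicle. The groups did not overlap, and vehicle replicate 3 was nearest to R, with a log2 change of 0.49 and a 95% interval of 0.15 to 0.82 (limma, adjusted p = 0.089). For mt-Nd5, at the far end of the membrane arm, R replicate 3 stood apart from the other R libraries. The values were 872, 778 and 1243 FPKM in R and 776, 738 and 757 in vehicle, a log2 change of 0.32 (limma, adjusted p = 0.34). Its groups did not overlap, but R replicate 2 (778) lay only just above vehicle replicate 1 (776). The small subunit genes mt-Nd3 and mt-Nd4l, inside the copied run, rested on 56 to 97 and 28 to 84 reads per library. Their groups overlapped, at 8.90 to 12.8 FPKM in R and 8.59 to 13.3 in vehicle for mt-Nd3 and at 5.24 to 13.8 and 6.71 to 9.70 for mt-Nd4l. The log2 changes were -0.05 with an interval of -0.49 to 0.39 for mt-Nd3 and 0.34 with an interval of -0.44 to 1.12 for mt-Nd4l.

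In complex III, mt-Cytb (chrM:14145-15288) encodes cytochrome b, which carries both ubiquinone-binding sites of the complex and is its sole mitochondrially encoded subunit. It had 2727.5, 2867 and 2831 FPKM in R and 1629, 1654 and 1988 in vehicle. The R libraries were close to each other and all above vehicle, of which replicate 3 was the highest. The mean was 1.599-fold higher in R, a log2 change of 0.68 with an SE of 0.13 (limma, adjusted p = 0.031).

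The 3 mt- genes of complex IV encode its catalytic core, and none passed. mt-Co1 (cytochrome c oxidase subunit 1, which holds the oxygen-reducing centre) was the most abundant of the 46 genes and the 4th most abundant of all listed genes in every library. Its values were 5635, 5127 and 5902 FPKM in R and 5223, 4672 and 5070 in vehicle. The groups overlapped, and the log2 change of 0.15 had an interval of -0.20 to 0.50 (limma, adjusted p = 0.59). For mt-Co2, which takes electrons from cytochrome c, the R values of 75.9, 85.8 and 65.6 FPKM were all above the vehicle values of 41.9, 49.3 and 59.3. The log2 change was 0.59 with an SE of 0.15 (limma, adjusted p = 0.065). For mt-Co3, a structural core subunit, R replicate 1 was the highest: 35.5, 24.2 and 24.5 FPKM in R against 18.3, 18.5 and 21.4 in vehicle, a log2 change of 0.49 (limma, adjusted p = 0.11).

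The 2 mt- genes of ATP synthase did not pass either. mt-Atp6, a subunit of the proton channel, had 24.9, 26.1 and 21.05 FPKM in R and 16.8, 17.3 and 21.3 in vehicle. R replicate 3 lay just below vehicle replicate 3, so the groups overlapped, with a log2 change of 0.36 and an interval of 0.07 to 0.66 (limma, adjusted p = 0.13). mt-Atp8, a short accessory subunit, was the lowest of the 46 genes, with 13 to 32 reads per library. Its values of 2.93, 4.91 and 4.88 FPKM in R and 9.19, 7.59 and 3.43 in vehicle overlapped. Its change of -0.50 had an interval of -1.25 to 0.25, the widest but 1 of the 46, and no difference was detectable at this depth.

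The 4 calls kept their direction and a similar size but not their side of the threshold. Leaving out R replicate 1, vehicle replicate 1 or vehicle replicate 2 left none of the 13 mt- genes past it, and without a filter on low values none passed (limma, adjusted p of 0.13 to 0.41 for the 4 genes). Without R replicate 2 or R replicate 3 mt-Nd4 and mt-Nd6 passed, and without vehicle replicate 3 mt-Co2 joined the 4. Over the 6 fits with 1 library left out, the log2 change ranged from 0.67 to 0.80 for mt-Nd4, 0.60 to 0.68 for mt-Nd6, 0.49 to 0.62 for mt-Nd2 and 0.63 to 0.77 for mt-Cytb. With quantile normalization mt-Nd1 (adjusted p = 0.036) and mt-Co2 (adjusted p = 0.044) passed as well.

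**Figure D2:**
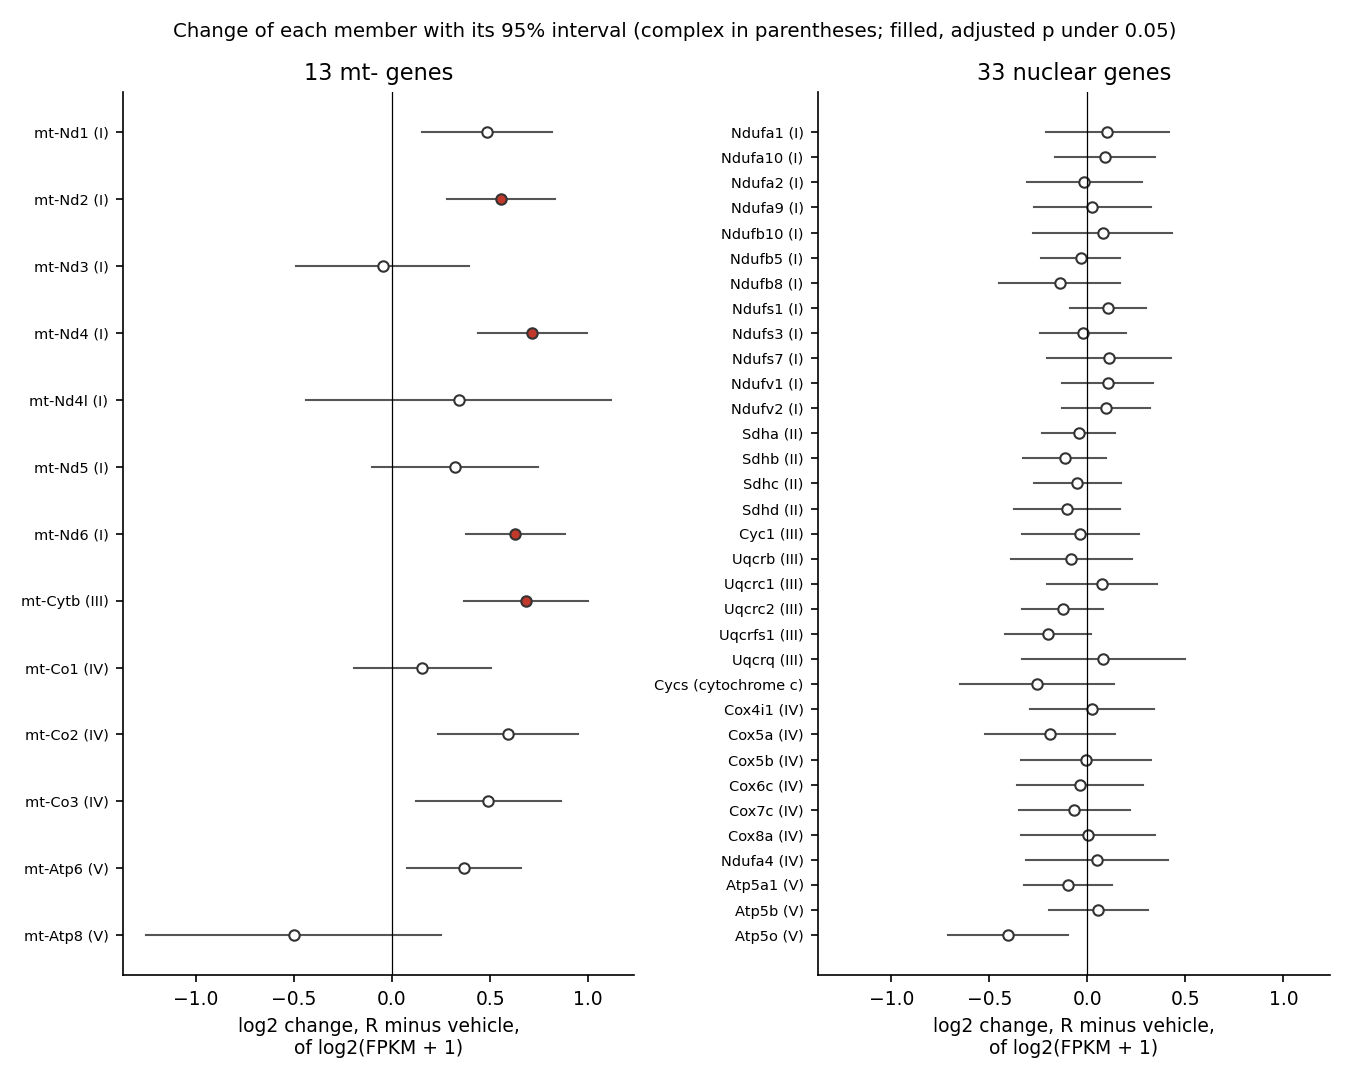
Points are the log2 change of each gene, R less vehicle in log2(FPKM + 1), lines its 95% interval, and filled points an adjusted p under 0.05 (left, 13 mt- genes; right, 33 nuclear genes; the complex is in parentheses). The 4 filled points are mt-Nd2, mt-Nd4, mt-Nd6 and mt-Cytb, and all nuclear changes lie between -0.41 and 0.11.

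The chromosome 1 pseudogenes were higher in R as well. The copy of mt-Co2, Gm28661 (chr1:24614885-24615565), passed the threshold, with 59.5, 68.1 and 49.0 FPKM in R and 34.0, 38.2 and 40.2 in vehicle. The groups did not overlap, and the log2 change was 0.63 (limma, adjusted p = 0.038). The other 6 copies had changes of 0.26 to 0.54 and did not pass. In 6 of the 7 all R libraries were above all vehicle libraries, the exception being Gm10222, against 13.9% of all genes tested. Reads of the copies also match the mt- genes, so the copies do not count as separate observations. The pseudogene names were chosen after the values were seen. The changes of gene and copy, side by side, were 0.59 and 0.63 for mt-Co2, 0.49 and 0.41 for mt-Co3, 0.36 and 0.54 for mt-Atp6, and 0.34 and 0.30 for mt-Nd4l. These 4 copies are identical to the genes over their whole length, so no base in them tells the source of a read. When the reads of each copy were added to its mt- gene, the change of mt-Nd3 turned from -0.05 to 0.26, that of mt-Co2 was 0.61 (limma, adjusted p = 0.051), that of mt-Co3 0.48 (adjusted p = 0.058) and that of mt-Atp6 0.47 (adjusted p = 0.072). The change of mt-Nd4, the only 1 of the 4 passing genes with a chromosome 1 copy, was 0.71 with the copy added (limma, adjusted p = 0.017).

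**Figure D3:**
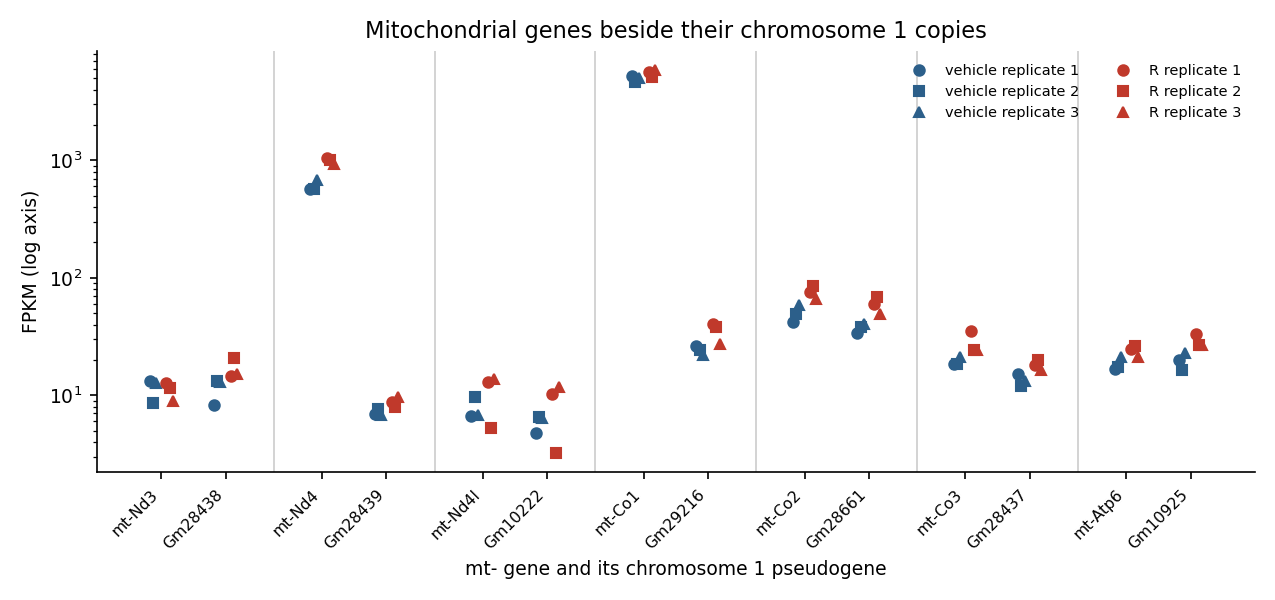
Each pair of columns gives FPKM (log axis) of a mt- gene and of its chromosome 1 pseudogene, with 1 point per library (blue, vehicle; red, R; shapes, replicates). The pairs of mt-Co2, mt-Co3, mt-Atp6, mt-Nd3 and mt-Nd4l lie at similar levels, while mt-Nd4 and mt-Co1, which have long stretches outside the copy, lie far above theirs.

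None of the ribosomal or transfer RNA genes of mitochondrial DNA passed the threshold. The ribosomal RNA genes mt-Rnr1 and mt-Rnr2, transcribed from the same strand as most messengers, had 104 to 139 FPKM in R against 116 to 139 in vehicle and 177 to 217 against 181 to 207. Their log2 changes were -0.09 and 0.08. Such small changes do not show that the ribosomal RNAs were unaffected, and how far the libraries kept such RNA was not tested. Of 24 mitochondrial ribosomal and transfer RNA genes, 21 were listed and 14 passed the filter, and the median change was -0.09. The transfer RNA gene mt-Tn, for asparagine, was nearest to the threshold at 111, 139 and 101 FPKM in R and 53.6, 78.2 and 78.8 in vehicle (log2 change 0.74, limma, adjusted p = 0.059). The 2 ribosomal RNA genes were chosen after their values were seen.

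None of the 33 nuclear genes passed the threshold (limma), and 1 had an unadjusted p under 0.05, against 24% of all genes tested. Their changes ran from -0.41 to 0.11 with a median of -0.02, 14 positive and 19 negative. The 95% intervals of all 33 lay between -0.71 and 0.50. In none was every R library above every vehicle library, against 13.9% of all genes tested, and in 2, Uqcrc2 and Atp5o, every R library was below, against 15.5%. A p that misses the threshold does not show that a gene was unaffected, and the intervals give the sizes that these libraries leave room for.

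The 12 nuclear genes of complex I had a median change of 0.09, between -0.14 for Ndufb8 and 0.11 for Ndufs7. Ndufs1, the largest subunit, which carries iron-sulfur clusters of the peripheral arm, had 10.2, 9.06 and 9.70 FPKM in R and 8.96, 8.69 and 9.10 in vehicle. The groups overlapped only at R replicate 2 and vehicle replicate 3. Ndufv1, which binds NADH, had 34.5, 38.5 and 30.9 FPKM in R and 32.0, 31.0 and 33.1 in vehicle, with R replicates 1 and 2 above and replicate 3 below all vehicle libraries. The accessory subunit gene Ndufb5 was the lowest nuclear member at 6.18 to 7.11 FPKM, over 4995 bases of annotated exon. Ndufa1, with 419 bases, had similar reads (619 to 847 per library against 558 to 732) and 81.7 to 112 FPKM.

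The 4 genes of complex II (succinate dehydrogenase, also an enzyme of the citric acid cycle) all had small negative changes, from -0.12 to -0.05, with a median of -0.08. The flavoprotein gene Sdha had 65.3, 61.4 and 64.9 FPKM in R and 69.0, 63.1 and 65.7 in vehicle, with an interval of -0.23 to 0.14 for its change, the narrowest of the 46. The iron-sulfur subunit gene Sdhb had 37.1 to 43.4 FPKM in R and 42.5 to 45.8 in vehicle. The groups of both genes overlapped.

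In complex III the 6 nuclear genes had a median change of -0.06. Uqcrc2, a core subunit, had 31.7, 32.0 and 27.5 FPKM in R and 33.9, 33.5 and 32.2 in vehicle. The groups were apart by a small gap, with a change of -0.13 (limma, adjusted p = 0.44). The Rieske iron-sulfur protein gene Uqcrfs1 had 55.6, 62.5 and 55.2 FPKM in R and 70.0, 61.2 and 68.3 in vehicle, overlapping at R replicate 2 and vehicle replicate 2, a change of -0.20 with an interval of -0.42 to 0.02. Cyc1, which encodes cytochrome c1, changed by -0.04 with an interval of -0.34 to 0.26. Their mitochondrially encoded partner, mt-Cytb, passed the threshold and none of the 6 did, and the difference between them was not tested.

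Cytochrome c itself (Cycs) carries electrons between complexes III and IV and, once released from mitochondria, takes part in apoptosis. It had 19.0, 24.7 and 17.1 FPKM in R and 22.9, 21.03 and 29.1 in vehicle, and the groups overlapped, with a change of -0.26 and an interval of -0.65 to 0.14. Of its windows 26.1% occur in transcripts of other genes, mostly Gm10053, so part of its reads cannot be assigned.

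The 7 nuclear genes counted in complex IV, Ndufa4 among them, had a median change of -0.01. Cox8a, a small membrane subunit, was the highest nuclear member, with 331, 438 and 304 FPKM in R and 352, 346 and 359 in vehicle. R replicate 2 was above and R replicate 3 below all vehicle libraries, and the change was 0.00 with an interval of -0.34 to 0.35. Cox4i1, the ubiquitous form of the subunit that binds regulatory nucleotides, showed the same arrangement at 201, 258 and 186 FPKM in R and 207, 201 and 221 in vehicle. Cox5a changed by -0.19 with an interval of -0.52 to 0.14.

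Of the 3 nuclear genes of ATP synthase, Atp5a1 and Atp5b encode the subunits of the catalytic head. They had 201 to 228 and 212 to 247 FPKM in R and 213 to 234 and 201 to 238 in vehicle, with changes of -0.10 and 0.06. Atp5o (chr16:91925214-91931687, minus strand) encodes the stalk subunit that holds the head in place. It had 23.6, 30.3 and 21.7 FPKM in R and 32.9, 31.7 and 35.6 in vehicle. Every R library was below every vehicle library, with R replicate 2 nearest to vehicle. Its change of -0.41, the most negative of the nuclear genes, had an SE of 0.13 and did not pass (limma, adjusted p = 0.11), and it passed only when R replicate 2 was left out (adjusted p = 0.038). Of its windows 41.6% occur in transcripts of other genes when those that overlap it are counted, so part of its reads may belong to them.

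The 13 mt- genes together held 4.50%, 4.22% and 4.94% of all summed FPKM in the R libraries and 3.34%, 3.21% and 3.70% in the vehicle libraries. All R shares were above all vehicle shares, at 4.55% ± 0.364 (SD, n = 3) against 3.42% ± 0.251, a ratio of 1.33. No p is given for a score over chosen genes. As a share of estimated reads rather than of FPKM, the means were 1.80% and 1.39%. The 33 nuclear genes summed to 2356 ± 329 FPKM (SD, n = 3) in R and 2369 ± 87.9 in vehicle. The R libraries thus spread more widely around nearly the same nuclear mean.

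The mean log2(FPKM + 1) of the mt- genes exceeded that of the nuclear genes by 2.16, 1.84 and 2.27 in R and by 1.68, 1.70 and 1.69 in vehicle. The groups did not overlap, and the difference of their means was 0.40. Over mt-Nd1, mt-Nd2, mt-Nd4, mt-Nd5, mt-Nd6, mt-Cytb and mt-Co1, a set chosen after the values were seen, that difference was 0.54. Within complexes it was 0.39 for complex I, 0.73 for complex III and 0.44 for complex IV. In complex V, where both mt- genes lie between mt-Co2 and mt-Co3, it was 0.08, with -3.36, -3.26 and -3.12 in R and -3.15, -3.16 and -3.68 in vehicle, so the mt- genes were below the nuclear ones in every library and the groups overlapped.

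**Figure D4:**
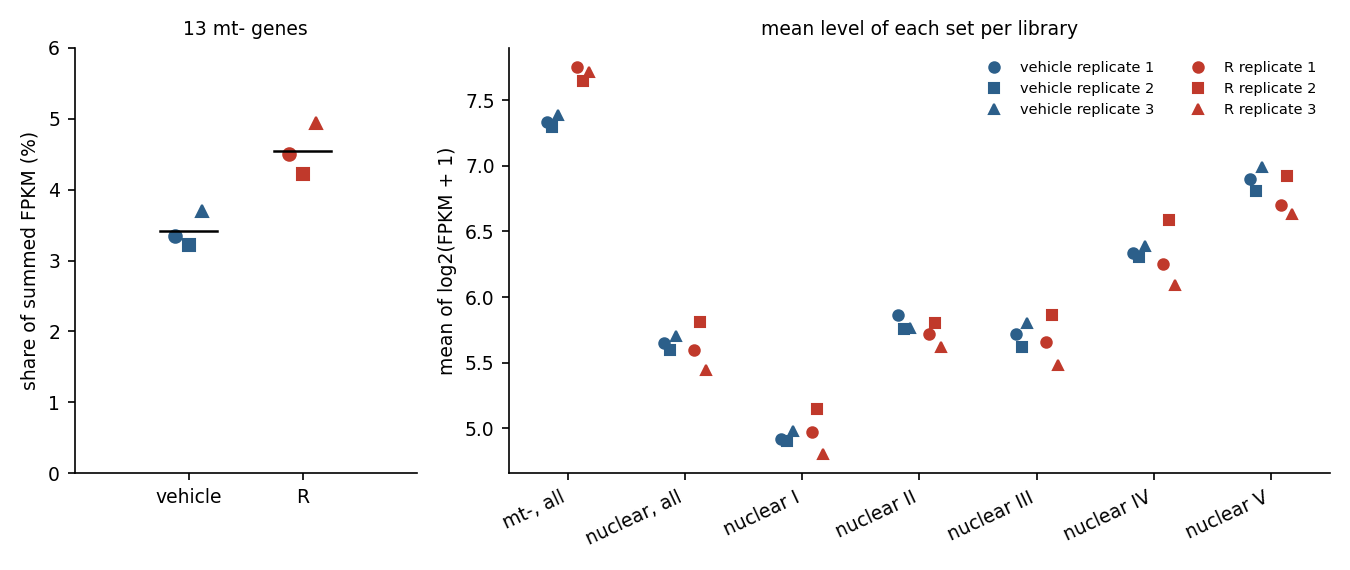
The left panel gives the share of summed FPKM held by the 13 mt- genes in each library (lines, group means), and the right panel the mean log2(FPKM + 1) of the mt- genes, of the 33 nuclear genes and of the nuclear genes of each complex, with 1 point per library (blue, vehicle; red, R; shapes, replicates). The mt- share is 4.22% to 4.94% in R and 3.21% to 3.70% in vehicle, while the nuclear means of the groups overlap.

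The nuclear genes moved together from library to library within the R group. In 31 of the 33 (93.9%) R replicate 2 was the highest and R replicate 3 the lowest of the 3 R libraries, an order found in 24.4% of all genes tested. R replicate 2 was the highest of all 6 libraries for 23 of the 33 (69.7%, against 24.5% of all genes tested), and R replicate 3 the lowest for 26 (78.8%, against 21.6%). The median distance between these libraries was 0.42 on the log2(FPKM + 1) scale, larger than the size of all 33 changes between groups. The order was not limited to the respiratory chain: it was present in 24 of 24 genes of cytosolic ribosomal proteins and in 39 of 48 genes of the large mitochondrial ribosomal subunit. It was present in 2 of the 13 mt- genes. Its cause was not tested.

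**Figure D5:**
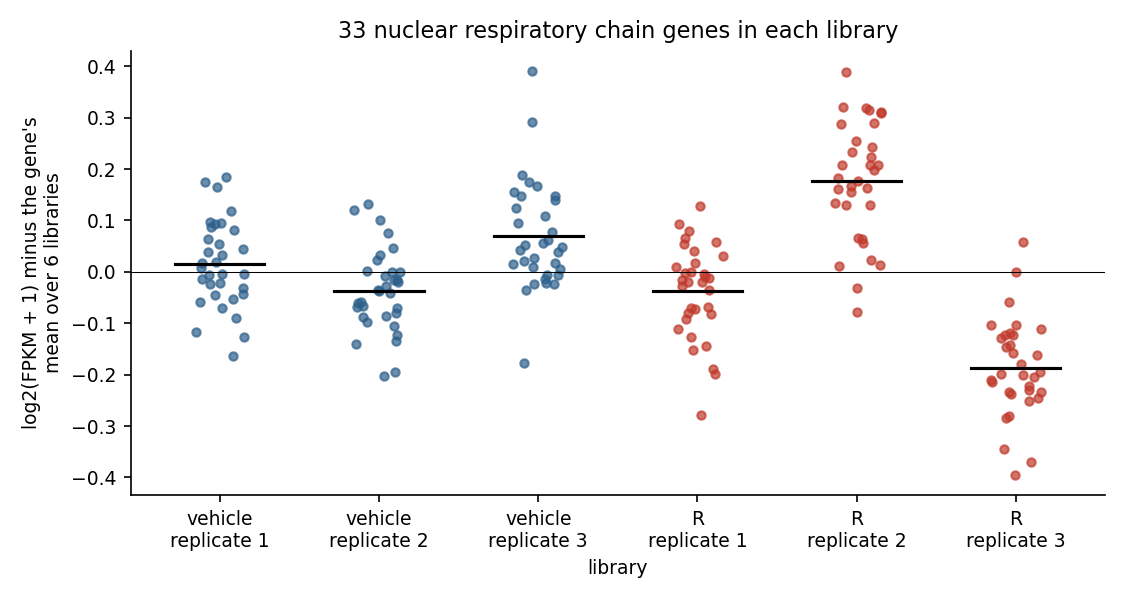
Each point is 1 of the 33 nuclear genes in 1 library, as its log2(FPKM + 1) minus its mean over the 6 libraries, with horizontal jitter for legibility and a line at the mean of the 33 (blue, vehicle; red, R). The points of R replicate 2 have a mean of 0.18 and those of R replicate 3 a mean of -0.19, on either side of the other 4 libraries.

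Of the remaining nuclear subunits 1 passed. Of 24 further complex I genes, 3 of complex III and 5 of complex IV, none passed in either direction, with median changes of 0.01, -0.04 and -0.12. In complex V 1 of 15 passed and 14 of the 15 had a negative change, with a median of -0.09. That gene was Atp5l, a membrane subunit found where ATP synthases pair, with 5.61, 6.99 and 6.66 FPKM in R and 10.1, 8.68 and 9.63 in vehicle. The groups did not overlap, with a log2 change of -0.50 (limma, adjusted p = 0.039), and the call was lost in each of the 6 fits with 1 library left out (adjusted p of 0.06 to 0.15). Over all 47 genes 0 were higher and 1 was lower, against 2.39% and 4.43% of all genes tested. Among subunits not called, Cox7a2, the common form of a complex IV subunit, was nearest to the threshold, at 49.4, 59.9 and 47.0 FPKM in R and 63.9, 62.8 and 67.3 in vehicle (change -0.31, limma, adjusted p = 0.13). Atpif1, the inhibitor of ATP synthase, had 29.1 to 40.0 FPKM in R and 38.0 to 38.3 in vehicle.

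Tissue-specific or inducible forms of the subunits were low or undetected. Of 10 such genes 4 passed the filter on low values, and Cox7b2, Cox8b, Cox8c and Cyct were listed at 0 in every library. None passed the test. Ndufa4l2, the hypoxia-inducible relative of Ndufa4, had 0.546, 0.812 and 1.21 FPKM in R and 5.03, 4.29 and 1.19 in vehicle. Vehicle replicate 3 was like the R libraries, and the log2 change of -1.16 did not pass (limma, adjusted p = 0.11), but it did without vehicle replicate 3 (adjusted p = 0.0059). AA467197, an inflammation-associated relative of the same subunit, had 1.18, 0.878 and 0.46 FPKM in R and 1.85, 1.51 and 1.91 in vehicle, and the groups did not overlap (change -0.60, limma, adjusted p = 0.087).

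Genes that build, express and supply the respiratory chain did not pass either. None did among 38 tested assembly factors (median 0.05), 32 genes of mitochondrial DNA maintenance and expression (median 0.02), 13 regulators of mitochondrial biogenesis (median -0.06), 19 enzymes of the citric acid cycle (median 0.00), 48 and 29 proteins of the large and small mitochondrial ribosomal subunits (medians 0.01 and -0.00), and 25 genes of the outer membrane, import and fusion (median 0.07). At an unadjusted p under 0.05 these lists held 6, 2, 0, 2, 1, 0 and 2 genes in that order, against 24% of all genes tested. The smallest p among the assembly factors was that of Coa5, required for complex IV, with 24.8, 22.6 and 26.8 FPKM in R and 35.5, 30.3 and 30.6 in vehicle (change -0.36, limma, adjusted p = 0.081). The groups did not overlap. Pnpt1, which degrades mitochondrial RNA, had 7.38, 5.57 and 6.03 FPKM in R and 8.42, 7.88 and 8.63 in vehicle, again without overlap (change -0.35, limma, adjusted p = 0.11). Lonp1, the protease of the mitochondrial matrix, changed by 0.23 (adjusted p = 0.23). Slc25a5, the ADP/ATP carrier that exports the product of ATP synthase, had 186, 204 and 177 FPKM in R and 241, 224 and 240 in vehicle. All R values were lower, but the change of -0.31 did not pass (limma, adjusted p = 0.093). The fusion protein gene Mfn2 changed by 0.26 (adjusted p = 0.13).

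Other transcripts moved with the groups and are given beside the mt- results. Over all genes tested 2.39% rose and 4.43% fell past the threshold. Of the 18 macrophage and monocyte markers 3 fell and none rose, with a median change of -0.42: Fcgr1, a high-affinity antibody receptor (change -2.47, limma, adjusted p = 0.0021), Itgam, an integrin of myeloid cells (-0.94, adjusted p = 0.0058), and Aif1 (-1.55, adjusted p = 0.026). Of the 12 stromal markers tested 1, Ly6a, fell past the threshold (change -2.56, limma, adjusted p = 0.015), and none rose past it. By sign the 12 were mixed, 6 positive and 6 negative, with a median change of 0.08 and a range of -2.56 to 1.70. Of the 3 tested markers of T and NK cells Nkg7, a cytotoxic granule gene, fell (change -1.47, limma, adjusted p = 0.0079). By sign, 1 of the 3 had a positive change (0.64) and 2 a negative change. All 12 summed to 3.43 to 8.44 FPKM in R and 7.69 to 12.3 in vehicle, with Klrb1c at 0. Markers of B, endothelial and neutrophil cells had 1, 1 and 2 genes tested, and none passed. Their summed levels in R and in vehicle were 2.20 to 4.42 and 2.55 to 4.33 FPKM for B cells, 2.88 to 6.11 and 1.69 to 2.48 for endothelial cells, and 6.15 to 9.54 and 7.64 to 14.3 for neutrophils, with Mpo, Elane and S100a9 at 0. Among erythroid markers 1 gene was tested, Epor, the erythropoietin receptor, with 2.24, 1.48 and 1.002 FPKM in R and 0.560, 1.05 and 0.553 in vehicle. Its groups overlapped at R replicate 3 and vehicle replicate 2, and the log2 change was 0.57 (limma, adjusted p = 0.16, unadjusted p = 0.030). Of 10 stress and apoptosis genes 3 rose and none fell: Hmox1, heme oxygenase (change 0.70, limma, adjusted p = 0.015), and Trib3 and Chac1, targets of the ATF4 stress response (0.65 and 0.89, adjusted p of 0.042 and 0.044). The part of these transcripts in the mt- changes was not tested.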

How the data were processed

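The table holds FPKM, which the authors computed and deposited for all 6 libraries, per the file headers. Per the submitters' processing notes, edgeR 3.18.1 was among the tools and the genome was GRCm38 (mm10). Aligner, counter, annotation and strandedness: not given in the sources used here. Sample titles gave the groups. The table listed 49328 genes and had 1 broken final line, which was dropped. Symbols, coordinates, exon lengths and sequences came from GENCODE M21 (GRCm38). Depth was estimated from the FPKM step of 1 read: 98.3% to 98.4% of values under 20.5 reads were whole within 0.02 reads.

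Genes reaching 1 FPKM in 3 or more of the 6 libraries were tested with limma 3.58.1 (R 4.3.3) on log2(FPKM + 1), with a variance trend, all 6 libraries, no covariate, and Benjamini-Hochberg adjustment over all 11862 genes at 0.05. Intervals are 95%. The code was tested on simulated data. Shared sequence is the percent of a gene's 50-base windows found in transcripts of other genes, and copies were aligned with Biopython 1.88. Beyond the 46 members, each of 22 lists names up to 4 genes of smallest p, plus defining cell markers. The members and lists were chosen with earlier results of these data known. Alternatives were pseudocounts, filters, scalings, no trend, a replicate block and each library left out. The level of 1 cell marker, and the sum over its list, is not reported here.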

Additional observations from a re-analysis of the deposited data

How the results depend on the processing

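The changes of mt-Nd2, mt-Nd4, mt-Nd6 and mt-Cytb stayed positive under every alternative run, but not past the threshold. Without a filter on low values 344 genes passed against 809 in all, and 0 of the 46 members. Leaving out 1 library gave 337 to 879 genes, 0 to 5 members, 0 to 5 mt- genes and 0 to 1 nuclear genes (Atp5o). These fits tested the genes that the 6-library filter kept. They were first run with the filter redone on the 5 libraries left, which gave 260 to 776 genes and the same numbers of members; the gene set was changed after those counts had been seen, and the redone filter is kept as an added alternative. Quantile normalization brought 6 mt- genes past the threshold. Adding the chromosome 1 copies, also chosen after seeing the data, left the 4 calls. Whether the replicate numbers pair the samples cannot be told from 3 libraries per group. Same-numbered deviations correlated at 0.142, -0.0117 and -0.0309, and differently numbered ones at -0.139 to 0.137. With replicate number as a block 756 genes and the same 4 members passed.

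For the lists, leaving out 1 library, under either filter, gave 0 to 1 calls in complex IV, 0 in complex V, 0 to 1 in tissue forms and in the small mitochondrial ribosomal subunit, 2 to 5 in macrophage, 0 to 2 in stromal, 0 to 2 in T and NK cell and 0 to 3 in stress genes. Without the filter complex V, stromal and stress genes had 0 calls and T and NK cell markers 2. The replicate block gave 0 in complex V, 1 among mitochondrial ribosomal and transfer RNAs, 5 macrophage and 3 stromal markers. Quantile normalization gave 1 among those RNAs and 5 macrophage markers, scaling to nuclear genes 1 of those RNAs, and the stricter filter 1 of those RNAs and 0 T and NK cell markers. The difference in the mitochondrial messenger share of summed FPKM, 1.13 percentage points, was 0.408 as a share of estimated reads, which weighs genes by length, and 0.938 to 1.30 with 1 library left out; the mitochondrial to nuclear level ratio differed by 0.307 to 0.525.

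Small changes turned in sign. Adding copies moved mt-Nd3 to 0.26. Equal medians gave 0.02 for Ndufa2, 0.01 for Ndufs3 and 0.03 for Cox5b, and scaling to nuclear genes 0.01 for Ndufa2 and 0.02 for Cox5b. With 1 library left out the log2 change ran from -0.23 to 0.09 for mt-Nd3, from -0.03 to 0.20 for Ndufa1, from -0.13 to 0.10 for Ndufa2, from -0.09 to 0.15 for Ndufa9, from -0.08 to 0.01 for Ndufb5, from -0.06 to 0.24 for Ndufb10, from -0.10 to 0.04 for Ndufs3, from -0.01 to 0.17 for Uqcrc1, from -0.09 to 0.24 for Uqcrq, from -0.14 to 0.07 for Cyc1, from -0.09 to 0.17 for Ndufa4, from -0.11 to 0.12 for Cox4i1, from -0.17 to 0.09 for Cox5b, from -0.19 to 0.07 for Cox6c, from -0.17 to 0.04 for Cox7c, from -0.15 to 0.11 for Cox8a, from -0.01 to 0.13 for Atp5b and from -0.19 to 0.01 for mt-Rnr1. The cause of these shifts was not tested. Depth limits mt-Atp8, mt-Nd4l and mt-Nd3 most, at 13 to 97 reads.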
